A study of Mus musculus with 9 samples.

Results

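The 48 genes described here build and run the machinery that separates chromosomes in mitosis: the kinetochore, the spindle checkpoint, the mitotic kinases, the spindle, condensin and the cytokinesis apparatus. They are a list of gene symbols set by function, and all 48 were found among the 36406 gene names of the array. Each gene is represented by 1 probe, the brightest on average over all arrays. The measurements come from satellite cells, which are muscle stem cells, sorted from mice labelled WT and from Bmi1-deficient mice labelled KO. All mice were of the FVB strain, 2 months old and labelled male. Neither the Bmi1 allele nor the tissues in which it acts are given in the labels. The sort kept cells with integrin alpha-7 and CD34 on their surface and removed those with CD31, CD45, CD11b or Sca1. Whole transcriptome amplification came before Cy3 labelling, and each Agilent array carried 1 colour.

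WT had 3 arrays and KO had 6. By their descriptions, KO replicates 1 and 4 share a sample number, as do 2 and 5, and 3 and 6. Correlations over probes were 0.995 to 0.996 inside these pairs and 0.968 to 0.982 for the 33 other pairs of arrays. Each pair was averaged, which gave KO samples 1, 2 and 3. Arrays had 71.9% to 75.8% of spots well above background, with 0 saturated spots. Although the labels speak of biological replicates, separate animals are not mentioned, and every p-value here measures only how far these samples spread, which may be technical. For KO replicate 1 the genotype field reads wild type and all other labels read KO, and it was kept as KO.

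Bmi1 is a Polycomb protein that keeps the Cdkn2a locus, which encodes cell cycle inhibitors, silent. Both Bmi1 probes were detected in KO (differences of 0.10 and 0.21), and they check nothing about the labels, because the labels do not say which part was deleted. The Cdkn2a probe that was well above background on all 9 arrays was higher in KO by 3.28. Markers of satellite cells, such as Pax7, Itga7 and Cd34, were well above background on all 9 arrays in 11 of 11 cases, with a median difference of 0.02.

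In mitosis, chromosomes are compacted by condensin, and microtubules of the spindle attach to kinetochores assembled on the centromere. The spindle checkpoint holds the cell until every kinetochore is attached. The ubiquitin ligase APC/C with its activator Cdc20 then destroys securin and cyclin B, separase cuts cohesin, and the cell divides by a contractile ring. Most of these genes are transcribed late in the cell cycle. Satellite cells in resting adult muscle are mostly quiescent, so such transcripts are usually taken as a sign of the cells that cycle.

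In KO, all 48 genes lay below WT on average, by a median log2 difference of -0.86 and with a range from -2.33 (Cdc25c) to -0.020 (Hmmr). Hmmr alone changed sign with the scaling, at 0.025 after quantile normalization and 0.012 in the authors' deposited values, which leaves 47 of 48 below WT there. A log2 difference of -1 is a halving of the signal. The difference was at least that large in 18 genes, lay between 0.5 and 1 in 26 and was under 0.5 in 4, which were Bub3, Hmmr, Cenpq and Smc2. The count of 18 was 4 without KO sample 3, 32 without KO sample 2 and 9 without WT sample 3, and it was 7 after the normexp background correction and 8 in the authors' deposited values. Of all 28375 features tested, 52.8% lay below 0, their median was -0.017, and 1.48% were lower by 2-fold or more.

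No single gene of the 48 passed the test over all features. In limma, 0 had an adjusted p under 0.05, as compared to 0.141% of all features in either direction and 0.0106% lower in KO, and the smallest was 0.112, for Ube2c. At an unadjusted p under 0.05 there were 28, all lower in KO, and 4.21% of all features were lower at that level. The 3 KO samples lay below the 3 WT samples without overlap in 32 genes, as compared to 8.09% of features, and above them in 0. The median of these genes had 2.26% of all features below it. The samples are bulk RNA, so fewer cycling cells and less of these transcripts per cell cannot be told apart.

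**Figure D1:**
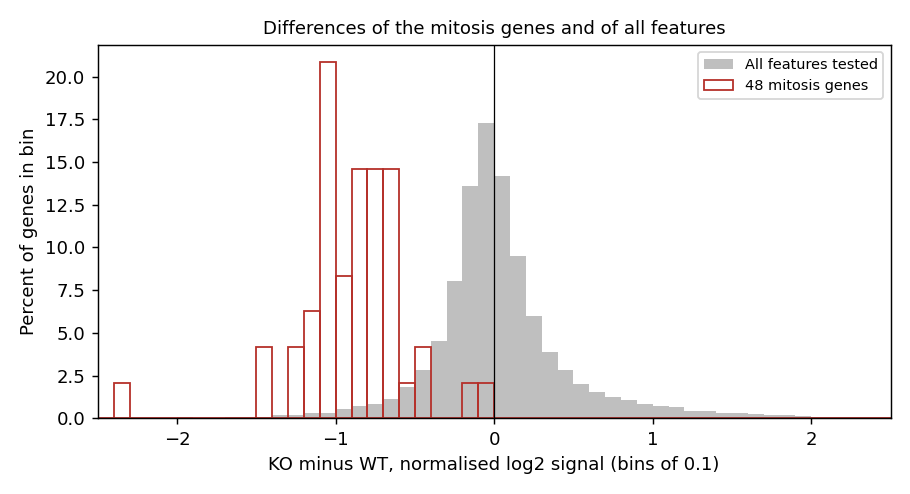
Percent of genes in bins of 0.1 of the log2 difference between KO and WT, for all 28375 features (grey) and the 48 mitosis genes (red outline); the axis ends at 2.5 on both sides and leaves out the few features beyond. The mitosis genes centre at -0.86 and all features at -0.017; Hmmr, in the bin next to 0, lay above 0 after quantile normalization and in the authors' deposited values.

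The size of the difference depended on the KO sample. Set against the mean of the WT samples, the median over the 48 genes was -0.75 in KO sample 1, -0.34 in KO sample 2 and -1.45 in KO sample 3. In the WT samples it was -0.14, 0.01 and 0.16. KO sample 3 thus lay farthest from WT and KO sample 2 nearest, and both KO samples 1 and 2 lay outside the range of the WT medians. KO sample 3 was the lowest KO sample in 46 genes, as compared to 31.6% of all features, KO sample 2 was the highest in 41, as compared to 26.6%, and both held in 40, as compared to 14.8%. In 46 genes KO sample 1 lay below every WT sample, in 33 KO sample 2 did and in 47 KO sample 3 did. The corresponding shares of all features were 27.2%, 32% and 25%. For KO sample 2 this was thus the smallest count, although its share over all features was the largest.

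The 2 arrays of a KO sample gave nearly the same values. Over the 48 genes they differed by a median of 0.087 in sample 1, 0.11 in sample 2 and 0.12 in sample 3. The largest differences within a pair were those of Ncapg in sample 1 (0.62) and of Cdc25c in samples 2 (0.41) and 3 (1.52). Both genes were dim: Ncapg was well above background on 3 of 6 KO arrays and Cdc25c on 4 of 6, while the other 46 genes were on all 9 arrays. The arrays of KO sample 3 had 75.7% of spots well above background each, within the range of the other arrays.

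Each KO sample holds an array of either slide, and the WT samples lie 2 on slide 1 and 1 on slide 2. Within slide 1 the median over the 48 genes was -0.84 with all 48 lower, and within slide 2, where 1 WT array allows no test, it was -0.87 with 47 lower and Hmmr at 0.063. With slide as a block the median was -0.90, though the slide term of that fit is set by the WT samples alone. Leaving out KO sample 3 brought the median to -0.54 with all 48 still lower, and leaving out KO sample 2 brought it to -1.11. The count at an unadjusted p under 0.05 fell from 28 to 16 within slide 1, to 15 without WT sample 2 and to 14 without WT sample 3.

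**Figure D2:**
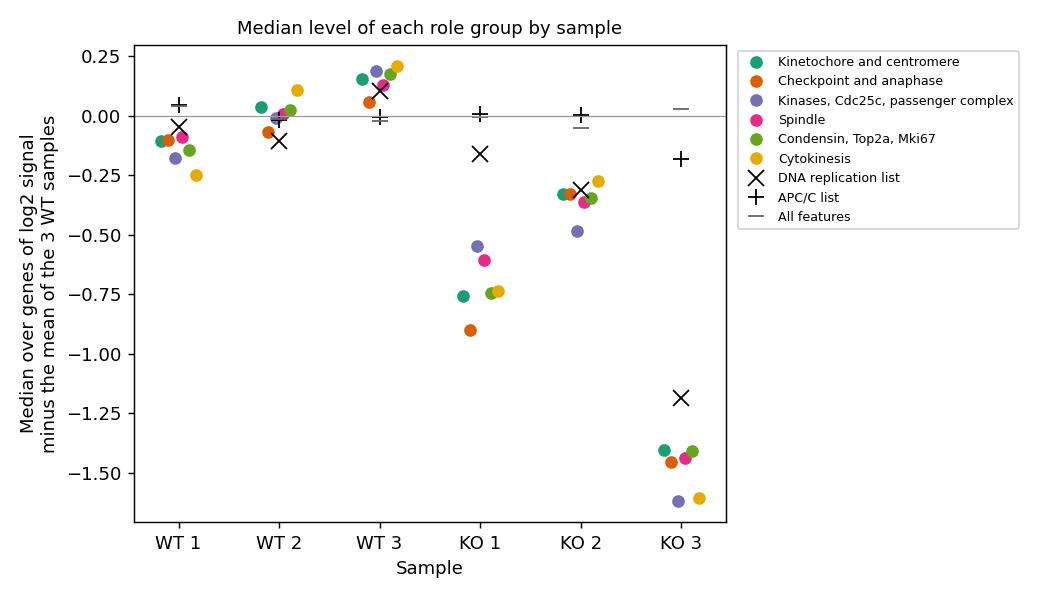
Median over the genes of each role group (coloured points) of the log2 signal minus the mean of the 3 WT samples, for each of the 6 samples on the x axis, with DNA replication genes, APC/C genes and all features for comparison. All role groups lie lowest in KO sample 3 (-1.62 to -1.41) and nearest to WT in KO sample 2 (-0.48 to -0.27); the sample numbers are names and set no order.

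Promoters of mitosis genes are known for a pair of elements: the cell cycle genes homology region (CHR), which is read by the DREAM and MuvB complexes, and the CCAAT box, which is read by NF-Y. Of the 48 genes, 40 had an entry in the RefSeq promoter table (assembly GRCm38.p6), with 250 bases before to 50 bases after the start. The CHR letters TTTGAA, on either strand, were in the promoters of 25 of these 40 genes (62.5%), as compared to 20.2% of 27025 genes. CCAAT, on either strand, was in 30 (75%), as compared to 41.1%. Both were in the same promoter of 23 genes (57.5%, as compared to 7.97%), and neither was in 8 (20%, as compared to 47.7%). The search was made after the values were seen. It also covered TTCGAA (10% of the 40 genes and 1.8% of all), TTTAAA (17.5% and 14.9%), GGCGGGAA (5% and 2.52%), TTTCGCGC (0 and 0.374%) and TTTGGCGC (2.5% and 0.585%), on both strands, and matches of different motifs may share bases at their ends. A match is a run of letters in this window and describes nothing further.

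The 100 bases before the start are shown for 10 genes, chosen after their values and matches were seen. Capitals mark TTTGAA or CCAAT on either strand (TTCAAA and ATTGG on the other), and sequences run 5′ to 3′ along the gene. The first 3 are genes of the step into anaphase and the next 3 are genes of chromosome compaction and proliferation. Bub3 and Hmmr had the smallest differences of all. Mad2l1 and Nuf2 had among the smallest p and hold neither motif anywhere in the window.
Ube2c (chr2:164769829-164769928, + strand): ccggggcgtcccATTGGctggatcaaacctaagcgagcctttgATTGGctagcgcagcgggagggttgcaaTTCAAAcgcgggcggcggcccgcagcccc
Cdc20 (chr4:118437344-118437443, - strand): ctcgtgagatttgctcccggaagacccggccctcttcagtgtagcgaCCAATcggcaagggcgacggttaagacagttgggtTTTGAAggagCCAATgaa
Espl1 (chr15:102296193-102296292, + strand): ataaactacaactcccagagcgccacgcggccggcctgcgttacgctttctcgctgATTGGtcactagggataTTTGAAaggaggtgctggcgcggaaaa
Ncapg (chr5:45669825-45669924, + strand): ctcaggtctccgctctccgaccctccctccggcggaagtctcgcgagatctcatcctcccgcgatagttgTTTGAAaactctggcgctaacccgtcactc
Top2a (chr11:99024190-99024289, - strand): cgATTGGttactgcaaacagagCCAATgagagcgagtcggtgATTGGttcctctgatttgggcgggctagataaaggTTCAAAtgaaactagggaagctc
Mki67 (chr7:135716380-135716479, - strand): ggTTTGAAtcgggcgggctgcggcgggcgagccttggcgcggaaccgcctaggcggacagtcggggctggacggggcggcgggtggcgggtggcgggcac
Bub3 (chr7:131560270-131560369, + strand): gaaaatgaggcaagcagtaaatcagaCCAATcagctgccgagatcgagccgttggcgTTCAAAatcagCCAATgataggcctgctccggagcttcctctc
Hmmr (chr11:40733438-40733537, - strand): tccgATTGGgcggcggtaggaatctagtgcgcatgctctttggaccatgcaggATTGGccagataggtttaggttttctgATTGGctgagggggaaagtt
Mad2l1 (chr6:66535121-66535220, + strand): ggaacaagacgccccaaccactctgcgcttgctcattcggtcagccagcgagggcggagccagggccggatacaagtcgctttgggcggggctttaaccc
Nuf2 (chr1:169531465-169531564, - strand): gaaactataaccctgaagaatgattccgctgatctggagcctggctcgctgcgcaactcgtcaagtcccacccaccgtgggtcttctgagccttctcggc

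In Ube2c, Espl1 and Top2a the CHR letters lie nearer to the start than any CCAAT of the stretch shown, in Cdc20 and Bub3 a CCAAT lies on either side of them, and in Hmmr they lie 8 bases after the start and so outside it. TTTGAA did not go with a larger difference. The other runs searched, such as TTCGAA, were not counted in the classes that follow. Genes with TTTGAA had a median difference of -0.84 (25 genes, from -1.49 to -0.020), genes without it -0.87 (15 genes, from -1.10 to -0.46) and the 8 genes with neither motif -0.78. The role groups held TTTGAA unevenly: 5 of 13 kinetochore genes, 6 of 9 checkpoint genes and 3 of 5 kinase and passenger genes. It was in 2 of 3 spindle genes, 5 of 6 in the group of condensin, Top2a and Mki67, and 4 of 4 cytokinesis genes.

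**Figure D3:**
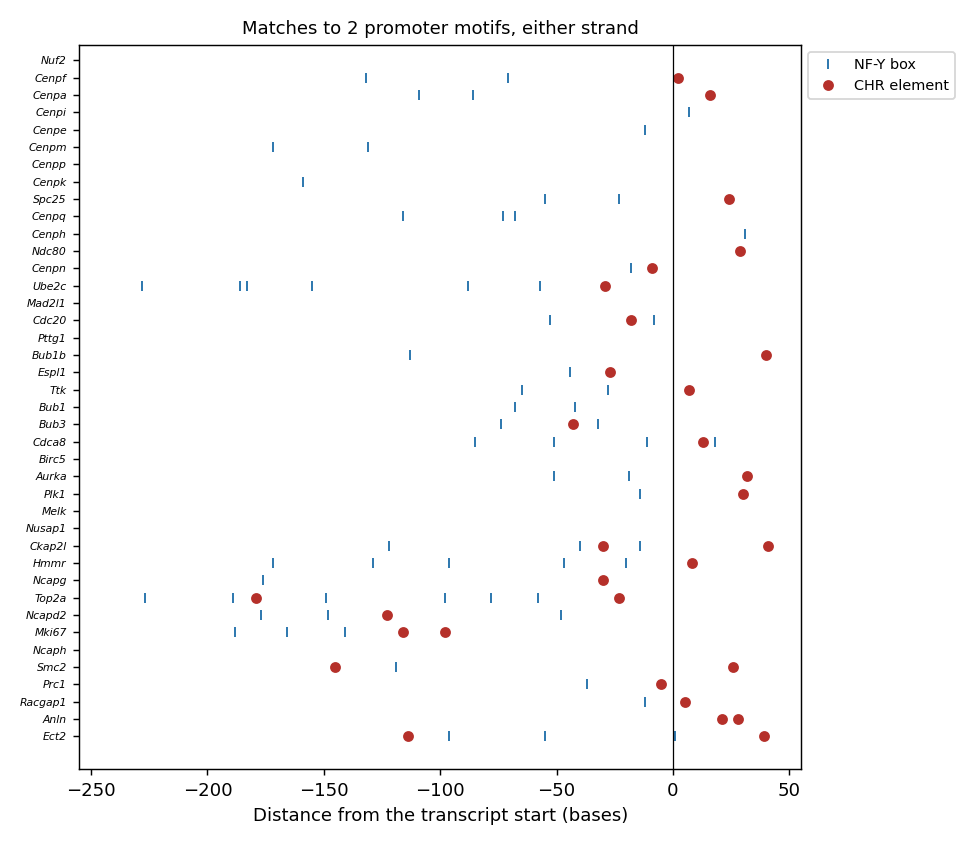
Position of each match to the letters TTTGAA (red points, CHR element in the key) and CCAAT (blue bars, NF-Y box in the key), on either strand. Positions are in bases from the transcript start, for the 40 genes with a RefSeq promoter, ordered by role group. Binding was not measured. The first listed start of a gene is drawn; 8 rows, Mad2l1 and Nuf2 among them, hold no match.

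Kinetochore and centromere genes were lower in KO by a median of -0.83 over 14 genes, with a range from -1.44 (Cenpf) to -0.46 (Cenpq). At an unadjusted p under 0.05 there were 7 (50%, as compared to 4.21% of all features lower at that level). Samples did not overlap in 9 (64.3%, as compared to 8.09% of features below WT), but 0 passed in limma (smallest adjusted p = 0.165). Medians in KO samples 1, 2 and 3 were -0.76, -0.33 and -1.41. The median was -0.72 within slide 1, -0.86 within slide 2, -0.87 with slide as a block and -0.49 without KO sample 3.

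Nuf2, a subunit of the NDC80 complex that binds the microtubule end, had a normalised log2 signal of 0.92, 1.14 and 0.89 in the 3 WT samples and 0.23, 0.42 and -0.07 in the 3 KO samples. Its difference of -0.79 ± 0.17 (SE) was not called (limma adjusted p = 0.165), and a second probe gave -0.52. All KO samples of Nuf2 lay below all WT samples, and KO sample 2 was the highest of them. The other subunits of the complex were lower by -0.96 (Spc24), -0.62 (Spc25) and -0.65 (Ndc80). Ndc80 had WT values of 0.70, 0.77 and 0.93 and KO values of 0.04, 1.04 and -0.62, so here KO sample 2 lay above every WT sample. The Nuf2 probe lies at 171428989 to 171429048 of chromosome 1 (mm9, the build of the array design, as for all probe positions).

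Cenpa, the centromeric histone variant that marks where a kinetochore forms, was at 1.46, 1.52 and 1.78 in WT and at 0.19, 0.96 and -0.29 in KO (difference -1.30 ± 0.32, limma adjusted p = 0.220). The groups did not overlap, and the KO samples spread over more than 1 log2 unit. Cenpf, a large protein of the outer kinetochore that accumulates in G2 phase, was at -2.78, -2.69 and -2.98 in WT and at -5.08, -3.78 and -3.93 in KO (-1.44 ± 0.36, adjusted p = 0.214). It was the only member of the 48 whose lowest KO sample was sample 1. Its difference was -0.85 after the normexp background correction, which pulls dim values together, so its size depends on the treatment of background. Cenpi, of the inner centromere network, was at -0.70, -0.37 and -0.26 in WT and at -1.45, -0.93 and -1.96 in KO (-1.0 ± 0.28, adjusted p = 0.274), again without overlap.

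The other inner centromere genes Cenph, Cenpk, Cenpm, Cenpn, Cenpp and Cenpq differed by -1.03, -0.70, -1.05, -0.55, -0.74 and -0.46, and the kinetochore motor Cenpe by -0.87. They did not share 1 pattern over the samples. Cenph had WT values of 0.24, 0.63 and 0.38 and KO values of 0.11, 0.10 and -2.02, so its difference rested on KO sample 3 and was -0.32 without it. Cenpn was at -2.35, -2.21 and -1.80 in WT and at -2.35, -2.11 and -3.55 in KO, where sample 2 overlapped WT and sample 1 was level with the lowest WT sample. A second Cenpq probe differed by -0.04 where the brightest gave -0.46. Cenph, Cenpn and Ndc80 are singled out after their values were seen.

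Genes of the spindle checkpoint and of the step into anaphase were lower by a median of -0.87 over 9 genes, from -1.49 (Ube2c) to -0.19 (Bub3). Of these, 7 had an unadjusted p under 0.05 (77.8%, as compared to 4.21% of all features lower at that level). As many, 7, did not overlap between groups (8.09% of features lay so below WT), with 0 called in limma (smallest adjusted p = 0.112). The KO samples had medians of -0.90, -0.33 and -1.46. Within slides 1 and 2 the median was -0.82 and -0.91, with slide as a block -0.91, and without KO sample 3 -0.59.

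Ube2c, the enzyme that hands ubiquitin to APC/C targets, was at 2.83, 2.80 and 3.01 in WT and at 1.21, 1.95 and 1.0 in KO. WT was 2.82-fold over KO (log2 difference -1.49 ± 0.26), which had the smallest p of the 48 genes and did not pass (limma adjusted p = 0.112). The KO sample nearest to WT, sample 2, was still 0.93 below the WT mean, and 116 of the 28375 features lay at or below this difference. A second Ube2c probe gave -1.21. The call turned on the setting. Ube2c passed after the normexp correction (adjusted p = 0.0333), in the authors' deposited values (0.0459), in a fit of all arrays with a random term for the sample and a fixed term for the slide (0.0299, with 0.176% of all features called lower) and with every array taken for a sample (0.0123, with 1.08% called lower). Over all alternatives the adjusted p ranged from 0.0123 to 0.291. Both fits of all arrays count arrays in their degrees of freedom, so their p may be too small. The probe lies at 164597496 to 164597555 of chromosome 2 (mm9).

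Cdc20, which activates APC/C once the checkpoint is satisfied, was at 2.57, 2.58 and 2.86 in WT and at 1.60, 1.95 and 0.94 in KO (-1.18 ± 0.27, limma adjusted p = 0.192). The probe lies at 118105534 to 118105593 of chromosome 4 (mm9). Mad2l1, whose product Mad2 holds Cdc20 inactive, was at 1.67, 1.44 and 1.64 in WT and at 1.05, 0.98 and 0.86 in KO (-0.62 ± 0.13, adjusted p = 0.154). Here the 3 KO samples were close together, with an SD of 0.096, as compared to 0.51 in Cdc20, and sample 1 was the highest. Other Mad2l1 probes gave -0.65 and -1.08. Pttg1, which encodes securin, was at 0.43, 0.85 and 0.69 in WT and at -0.39, 0.35 and -0.58 in KO (-0.87 ± 0.27, adjusted p = 0.322), and its groups came within 0.1 of each other.

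Separase, Espl1, which securin inhibits, differed by -0.82, with WT values of -2.07, -1.99 and -2.10 and KO values of -2.77, -2.34 and -3.51. The checkpoint kinases Ttk and Bub1 differed by -0.76 and -1.05 and the kinase-like Bub1b by -1.0. Bub1 and Bub1b overlapped between the groups through KO sample 2. Bub3, the adaptor of Bub1 and Bub1b at the kinetochore, differed least in this group. It was at 2.36, 2.27 and 2.38 in WT and at 2.23, 2.21 and 2.01 in KO, and the 95% interval of its difference ran from -0.48 to 0.11 around -0.19 (limma adjusted p = 0.662). Bub3 and Espl1 are singled out after their values were seen.

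Mitotic kinases, the phosphatase Cdc25c and the chromosomal passenger complex were lower by a median of -1.0 over 9 genes, from -2.33 (Cdc25c) to -0.70 (Incenp). An unadjusted p under 0.05 was reached by 4 (44.4%, as compared to 4.21% of all features lower at that level). Samples did not overlap in 7 (77.8%, as compared to 8.09% of features below WT), and 0 were called in limma (smallest adjusted p = 0.221). KO samples 1 and 2 were close here, with medians of -0.55 and -0.48, and KO sample 3 was at -1.62. The median was -1.0 within slide 1, -0.87 within slide 2, -0.94 with slide as a block and -0.63 without KO sample 3.

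The passenger complex corrects wrong attachments through the kinase Aurkb, which is held at the centromere by Incenp, survivin (Birc5) and borealin (Cdca8). Cdca8 was at 2.90, 2.54 and 2.85 in WT and at 1.84, 2.16 and 1.29 in KO (-1.0 ± 0.25, limma adjusted p = 0.221), and a second probe gave -1.14. Birc5 was at 3.47, 3.57 and 3.74 in WT and at 2.82, 3.11 and 2.14 in KO (-0.90 ± 0.26, adjusted p = 0.285), with -0.89 and -0.92 at its other probes. Aurkb and Incenp differed by -1.0 and -0.70, so all 4 subunits lay below WT without overlap at their brightest probes; a second Incenp probe overlapped. The Birc5 probe lies at 117716978 to 117717037 of chromosome 11 (mm9).

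Aurka, the kinase of the spindle poles, was at 0.27, 0.15 and 0.77 in WT and at -0.58, -0.13 and -1.19 in KO (-1.03 ± 0.31, limma adjusted p = 0.304). Plk1, which drives entry into and passage through mitosis, was at -0.41, 0.01 and 0.31 in WT and at -1.26, -0.31 and -1.70 in KO (-1.06 ± 0.39, adjusted p = 0.403). Aurka did not overlap between groups, while KO sample 2 of Plk1 lay above WT sample 1. The kinases Melk and Pbk differed by -0.72 and -0.81, mostly through KO sample 3. Without that sample they differed by -0.28 and -0.29.

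Cdc25c, which removes the inhibitory phosphates of Cdk1, had the largest difference and one of the largest errors (-2.33 ± 1.05, limma adjusted p = 0.503). It was at -3.12, -2.98 and -1.95 in WT and at -3.16, -4.52 and -7.35 in KO, and neither array of KO sample 3 was well above background. KO sample 1 lay within 0.04 of WT sample 1. After the normexp correction the difference was -1.07, and without KO sample 3 it was -1.16, so its size is not settled. Cdc25c is singled out after its values were seen.

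Spindle genes were lower by a median of -0.91 over 5 genes, from -1.10 (Nusap1) to -0.020 (Hmmr, which changes sign with the scaling). There were 3 at an unadjusted p under 0.05 (60%, as compared to 4.21% of all features lower at that level). Another count of 3 was without overlap (8.09% of features lay so below WT), and 0 were called in limma (smallest adjusted p = 0.275). KO samples 1, 2 and 3 had medians of -0.61, -0.36 and -1.44. The median was -0.86 and -0.97 within slides 1 and 2, -0.92 with slide as a block and -0.53 without KO sample 3.

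Nusap1, which bundles spindle microtubules near chromosomes, was at -0.22, 0.25 and 0.70 in WT and at -0.92, -0.38 and -1.25 in KO (-1.10 ± 0.32, limma adjusted p = 0.276). Dlgap5, which stabilises the fibres at kinetochores, was at -0.31, -0.16 and -0.18 in WT and at -1.48, -0.58 and -1.65 in KO (-1.02 ± 0.29, adjusted p = 0.275), and a second probe gave -0.98. Tpx2, the activator of Aurora A on the spindle, was at 1.0, 1.28 and 1.46 in WT and at 0.64, 0.78 and -0.41 in KO (-0.91 ± 0.34, adjusted p = 0.413), with -0.97 at a second probe. All 3 lay below WT in each KO sample. Ckap2l, a protein of the spindle poles, was at 0.32, 0.03 and 0.15 in WT and at -0.25, 0.05 and -1.16 in KO (-0.62 ± 0.32, adjusted p = 0.565), where KO sample 2 overlapped WT.

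Hmmr, a hyaluronan receptor that also acts at the spindle poles, was the exception among the 48 genes. It was at 3.71, 3.70 and 3.90 in WT and at 3.75, 3.60 and 3.89 in KO (-0.020 ± 0.13, limma adjusted p = 0.977), with a 95% interval of -0.35 to 0.31. KO samples 1 and 3 lay among the WT values and KO sample 2 below them, and KO sample 3, the lowest sample in 46 of the genes, was the highest KO sample here. The probe, the only one of Hmmr, lies at 40515324 to 40515383 of chromosome 11 (mm9). Its interval does not reach the median of the 48 genes.

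**Figure D4:**
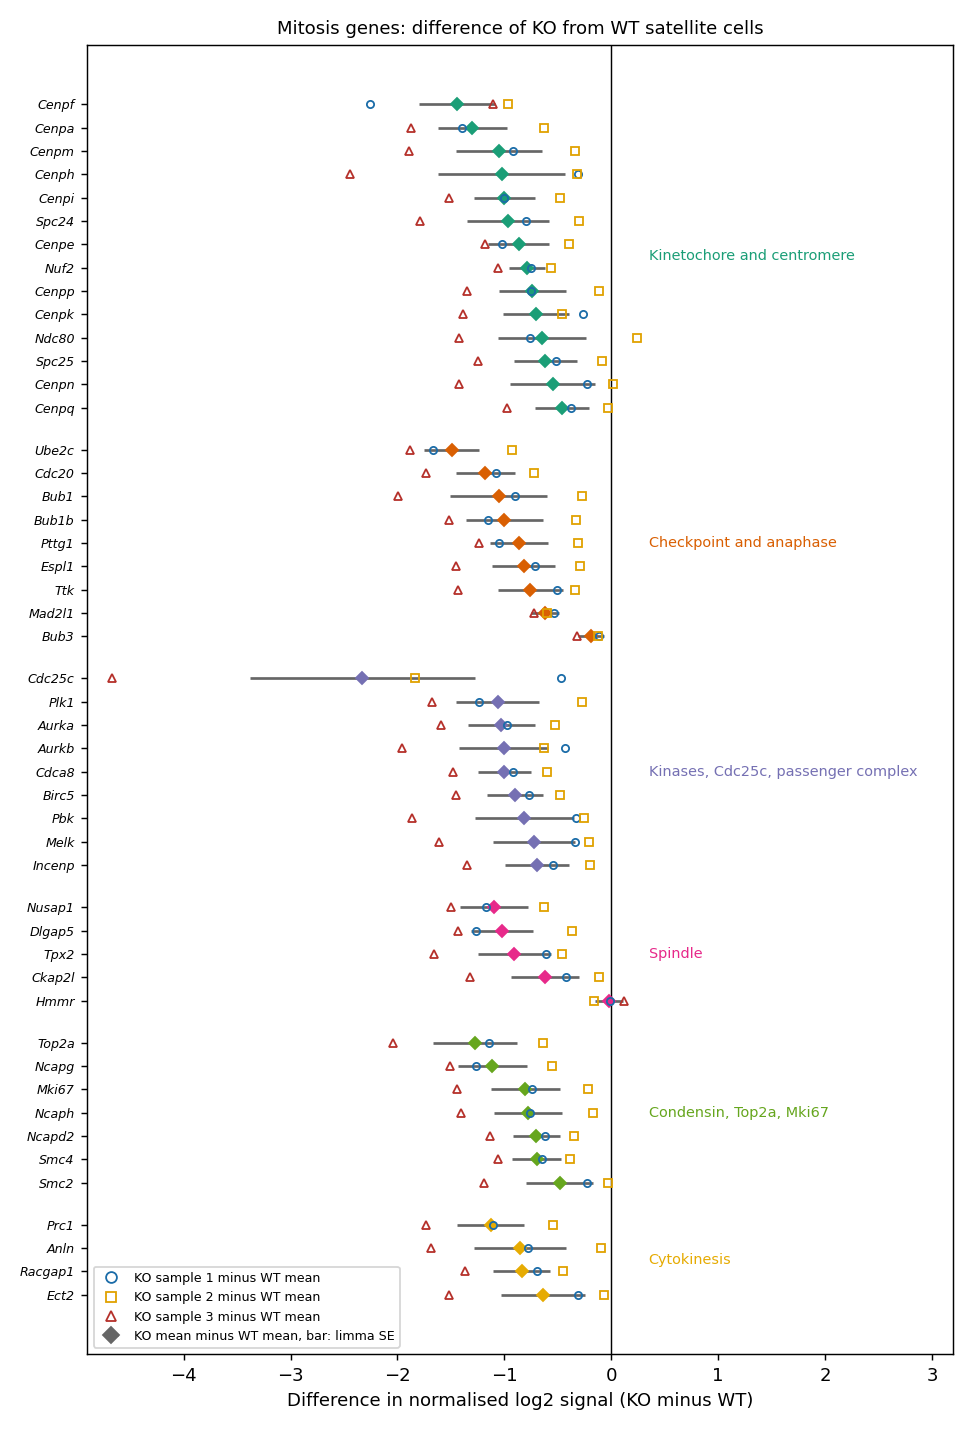
Log2 difference between KO and WT for each of the 48 genes by role group (diamonds with the limma SE), and each KO sample minus the mean of the 3 WT samples (open symbols). KO sample 3 is leftmost in 46 genes and KO sample 2 rightmost in 41; all diamonds lie left of 0, and that of Hmmr (-0.020) lies right of it after quantile normalization and in the authors' deposited values.

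Condensin, the topoisomerase Top2a and the proliferation marker Mki67 were lower by a median of -0.78 over 7 genes, from -1.27 (Top2a) to -0.48 (Smc2). Of these, 5 had an unadjusted p under 0.05 (71.4%, as compared to 4.21% of all features lower at that level). Samples did not overlap in 4 (57.1%, as compared to 8.09% of features below WT), and 0 were called in limma (smallest adjusted p = 0.285). The KO sample medians were -0.75, -0.35 and -1.41. Within slides 1 and 2 the median was -0.79 and -0.71, with slide as a block -0.73 and without KO sample 3 -0.48.

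Condensin I is a ring of the ATPases Smc2 and Smc4, closed by Ncaph and held by Ncapd2 and Ncapg. Ncapd2 was at 1.86, 2.00 and 2.08 in WT and at 1.36, 1.63 and 0.84 in KO (-0.70 ± 0.22, limma adjusted p = 0.326). Smc4 was at 0.57, 0.96 and 1.08 in WT and at 0.22, 0.49 and -0.19 in KO (-0.70 ± 0.23, adjusted p = 0.345). Both lay below WT in each KO sample. Ncapg was at -4.42, -4.65 and -3.81 in WT and at -5.56, -4.85 and -5.80 in KO (-1.11 ± 0.33, adjusted p = 0.285), but it was dim, and after the normexp correction it differed by -0.42. Ncaph and Smc2 differed by -0.78 and -0.48, and both overlapped WT through KO sample 2.

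Top2a, which untangles sister chromatids, was at -0.38, -0.10 and 0.39 in WT and at -1.17, -0.67 and -2.07 in KO (-1.27 ± 0.39, limma adjusted p = 0.313), so WT was 2.42-fold over KO. The probe lies at 98855522 to 98855581 of chromosome 11 (mm9). Mki67, which coats mitotic chromosomes and is the usual marker of cycling cells, was at 3.22, 3.56 and 3.58 in WT and at 2.71, 3.23 and 2.01 in KO (-0.80 ± 0.32, adjusted p = 0.443). Its groups met, since KO sample 2 was level with WT sample 1. A second Mki67 probe differed by -0.85 without overlap, with WT at 2.64, 2.88 and 2.85 and KO at 1.99, 2.45 and 1.38. The first lies at 142884764 to 142884823 of chromosome 7 (mm9).

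Cytokinesis genes were lower by a median of -0.85 over 4 genes, from -1.13 (Prc1) to -0.64 (Ect2). There were 2 at an unadjusted p under 0.05 (50%, as compared to 4.21% of all features lower at that level). Samples did not overlap in 2 (50%, as compared to 8.09% of features below WT), and 0 were called in limma (smallest adjusted p = 0.266). KO samples 1, 2 and 3 had medians of -0.74, -0.27 and -1.60. The median was -0.84 within slide 1, -0.92 within slide 2, -0.88 with slide as a block and -0.51 without KO sample 3.

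Prc1, which crosslinks the microtubules of the midzone, was at 1.04, 1.18 and 1.48 in WT and at 0.13, 0.69 and -0.50 in KO (-1.13 ± 0.31, limma adjusted p = 0.266). Racgap1, of the centralspindlin complex, was at 1.25, 1.58 and 1.68 in WT and at 0.81, 1.05 and 0.14 in KO (-0.84 ± 0.27, adjusted p = 0.330), and a second probe gave -0.92. Neither overlapped between groups at the brightest probe. Anln, the scaffold of the contractile ring, was at -0.45, 0.22 and 0.25 in WT and at -0.77, -0.08 and -1.68 in KO (-0.86 ± 0.43, adjusted p = 0.555). Ect2, the exchange factor that switches on RhoA at the cell equator, was at -0.85, -0.46 and -0.49 in WT and at -0.91, -0.67 and -2.12 in KO (-0.64 ± 0.39, adjusted p = 0.644). KO sample 2 of both lay among the WT values, and without KO sample 3 Ect2 differed by -0.19.

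**Figure D5:**
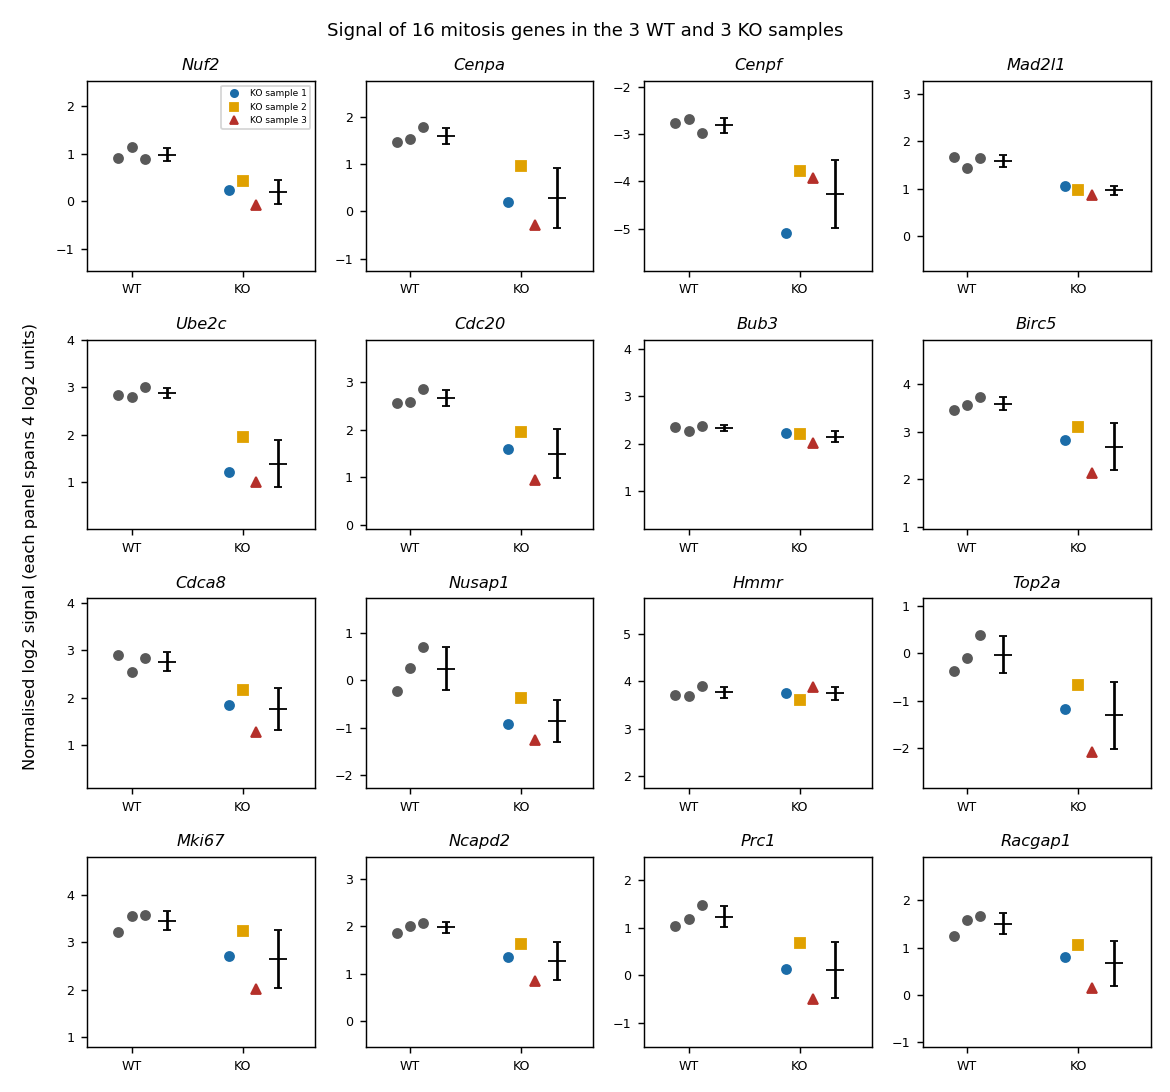
Normalised log2 signal of 16 of the genes in the 3 WT samples (grey) and the 3 KO samples (coloured by sample), with mean and SD (n = 3) to the right of each group; every panel spans 4 log2 units. The 6 samples of Hmmr and of Bub3 lie close together, and in most of the other panels KO sample 2 is nearest to WT and KO sample 3 farthest.

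Additional probes gave the same direction where they exist. There were 16 further probes of these genes, and all differed below 0, from -1.21 (Ube2c) to -0.04 (Cenpq). In 9 of the 16 KO lay below WT without overlap, as compared to 8.09% of all features, which hold 1 probe per gene name. These probes read the same genes in the same samples and are no separate evidence.

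Other genes of mitosis, in lists set by role, were lower less uniformly. Of 95 measured, 83 lay below WT (87.4%, as compared to 52.8% of all features), with a median of -0.44. There were 26 at an unadjusted p under 0.05, of which 25 were lower (26.3%, as compared to 4.21% of features). Without overlap, 38 lay below WT (40%, as compared to 8.09% of features) and 2 above, and 0 were called in limma. Other spindle genes, mostly kinesins, lay nearest to the 48 genes, with 19 of 19 lower and a median of -0.83. Kifc1, a minus-end motor, differed by -1.0 (adjusted p = 0.166) and Kif11, which pushes the poles apart, by -1.37 (0.299). Other cytokinesis genes were split: Cit (-0.94, adjusted p = 0.112), Arhgap11a (-1.10, adjusted p = 0.334), Cep55, Shcbp1, Cdca2 and Cdca3 were lower, while Rhoa, Sept7 and Sept9, which also serve cells that do not divide, lay between 0.02 and 0.15.

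Genes of mitotic entry were lower in 15 of 17 cases, with a median of -0.57. At an unadjusted p under 0.05 there were 7, of which 6 were lower (35.3%, as compared to 4.21% of all features). Nek2, a kinase of the centrosome, was at -0.03, -0.15 and 0.22 in WT and at -1.38, -1.03 and -1.69 in KO (-1.38 ± 0.21, limma adjusted p = 0.0887), a smaller p than that of any of the 48 genes. Cyclin B1, Ccnb1, differed by -1.34 (adjusted p = 0.203). Wee1, the kinase that holds Cdk1 inactive, went the other way, with 0.25, 0.88 and 0.25 in WT and 1.22, 1.21 and 1.21 in KO (0.76, adjusted p = 0.246), and is named after its values were seen. Other kinetochore genes had 20 of 22 lower and a median of -0.52, with Sgol2, a protector of centromeric cohesin, at -1.36 (adjusted p = 0.114) and Ska1, of the microtubule-binding Ska complex, at -1.35 (adjusted p = 0.241).

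Subunits and regulators of APC/C had a median near that of all features, -0.03 over 14 genes as compared to -0.017. Of these, 11 were lower (78.6%, as compared to 52.8% of all features). Without overlap, 2 lay below WT and 1 above, which is 21.4% and near the 16.7% of all features. In KO sample 3 their median was -0.18, as compared to 0.03 over all features. At an unadjusted p under 0.05 there were 0, and 0 were called in limma. Fzr1, the activator used after mitosis, differed by -0.28 (adjusted p = 0.511) and the inhibitor Fbxo5 by -0.50 (adjusted p = 0.520). Condensin II and cohesin genes had a median of -0.27, with 12 of 14 lower. Cdca5, which keeps cohesin on chromatin, differed by -0.91 (adjusted p = 0.267) and Pds5a by -0.29 (adjusted p = 0.508).

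Without KO sample 3 the medians of these lists were -0.38 for other kinetochore genes, -0.38 for mitotic entry, -0.02 for APC/C, -0.45 for other spindle genes, -0.09 for condensin II and cohesin, and -0.43 for other cytokinesis genes. TTTGAA was in 15 of 19 promoters of other spindle genes and in 2 of 14 of APC/C.

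DNA replication genes, which are expressed earlier in the cell cycle, were set beside the mitosis genes. All 22 lay below WT with a median of -0.55. An unadjusted p under 0.05 was reached by 3 (13.6%, as compared to 4.21% of all features lower at that level), and 0 were called in limma. The smallest p were those of the helicase subunits Mcm7 and Mcm5, with differences of -0.56 and -1.04, and Mcm5 had the largest difference of the list. Their medians in KO samples 1, 2 and 3 were -0.16, -0.31 and -1.19, against -0.05, -0.11 and 0.10 in WT. KO sample 1 was thus close to the lowest WT sample for replication genes, while it lay at -0.75 for the 48 mitosis genes. Without KO sample 3 the replication median was -0.25, with 21 of 22 lower. TTTGAA was in 3 of 19 of their promoters.

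Markers of other cell types that a sort can carry over were higher in the same KO samples. Endothelial markers were higher in 10 of 10 cases (median 0.77; 8 of 10 and 0.40 without KO sample 1), with summed signals of 3.95 to 5.33 in WT and 5.08 to 7.36 in KO, in multiples of the array's 75th percentile. Fibro-adipogenic markers were higher in 7 of 8 (median 0.91, sums of 89.4 to 97.8 and 110.4 to 122.1), mural markers in 8 of 8 (0.65, 51.3 to 57.5 and 61.4 to 65.1) and Schwann cell markers in 5 of 6 (0.96, 21.9 to 28.3 and 32.3 to 34.9). Of these, Pdgfrb, a receptor of mural cells, rose (1.35, limma adjusted p = 0.0377), and the fibro-adipogenic marker Pdgfra was well above background on 6 of 6 KO arrays and 0 of 3 WT arrays. Myeloid and lymphoid markers were higher in 1 of 7 (-0.07, 123.3 to 143.4 and 120.4 to 133.5), with Lyz2 not well above background on any array, and muscle fibre markers in 4 of 7 (0.19, 5.79 to 10.5 and 6.47 to 19.3). The myeloid and lymphoid sums are mostly the signal of Itgam, at a log2 of 6.85 to 7.11. The fibro-adipogenic sums are mostly that of Col3a1, at 6.14 to 6.34 with a difference of 0.03. The mural sums are mostly those of Notch3 and Acta2, which differed by 0.10 and 0.20. The endothelial sums are mostly that of Tek, which differed by 0.17. Such sums say little of the other markers in their lists. The fibre markers turned without KO sample 1, to 2 of 7 higher and a median of -0.24, and their median was -0.04 within slide 1. The antigens the sort selected against were detected as transcripts as well. Itgam (CD11b) and Ptprc (CD45) were well above background on all 9 arrays, with differences of -0.08 and -0.02. Pecam1 (CD31) and Ly6a (Sca1) were so on 8, which were 6 of 6 KO and 2 of 3 WT arrays. Pecam1 and Ly6a were higher in KO by 1.97 and 1.82, with overlap between the groups (limma adjusted p = 0.508 and 0.603). Levels of Itgam and Ptprc were far apart, with Itgam at 7.11, 6.88 and 7.08 in WT and Ptprc at -3.21, -3.18 and -4.15. Why the Itgam probe was so bright was not tested. The part of all these in the differences of the mitosis genes was not tested.

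Across the KO samples, KO sample 2 was nearest to WT in the endothelial (0.17), fibro-adipogenic (0.53), mural (0.30) and Schwann (0.68) medians, as in the mitosis genes. The Schwann cell markers had the order of the mitosis genes in full, with 0.89 in KO sample 1 and 1.32 in KO sample 3. In the endothelial, fibro-adipogenic and mural lists KO sample 1 was farthest from WT (1.34, 1.2 and 1.0), ahead of KO sample 3 (0.56, 0.90 and 0.78). Satellite cell markers had summed signals of 105.9 to 121.0 in WT and 109.1 to 111.9 in KO, with 5 of 11 lower. Single markers moved both ways. Chrdl2 and Cxcr4 lay below WT without overlap and Sdc4 and Cdh15 above, 36.4% of the list as compared to 16.7% of features. Sdc4 had the smallest p of the list and was higher by 0.75 (limma adjusted p = 0.106). Markers of activated myoblasts had a median difference of 0.05, with 2 of 5 lower. The smallest p was that of Ncam1, at 4.42, 4.45 and 4.47 in WT and at 3.99, 4.01 and 4.02 in KO. It differed by -0.44 without overlap (limma adjusted p = 0.201). Myog, the factor of differentiation, was at 3.11, 2.65 and 3.09 in WT and at 1.54, 2.76 and 3.64 in KO, highest in KO sample 3.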

How the data were processed

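Per the file headers, the 9 files are Agilent Feature Extraction output of 1-colour (Cy3) arrays, and the authors deposited them with processed intensities that are background-subtracted but not normalised between arrays. A second deposited table holds the authors' own log2 values of the arrays, whose centring and normalization are not given in the sources used here. It served as an alternative, with columns matched to arrays by sample. Probe coordinates are those of the design (mm9), and gene names are those of the files.

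Each array's log2 intensities were set against its own 75th percentile, taken without control spots. Outlier spots were dropped and repeat spots averaged. This left 35 probe values empty, none of them of the 48 genes, and each took that probe's average from the arrays that had it. The brightest probe on average over all arrays stood for its gene name. That probe was kept if 3 or more of the 9 arrays had it well above background, which left 28375 features. Over all probes, 42983 met this condition, and a gene whose brightest probe did not was left out. KO arrays were averaged in pairs, and 3 WT samples were compared with 3 KO samples by limma 3.58.1 (R 4.3.3; lmFit and eBayes, 4 residual degrees of freedom), with Benjamini-Hochberg adjustment over all features and a threshold of 0.05. This is the test behind every adjusted p in the text, all two-sided. The script was tested on simulated data. Precision is limited by how few arrays there are.

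The genes and gene lists were chosen with earlier results of these data known. Values in every sample are given for the 4 genes of each role group with the smallest limma p (all in groups of 5 or fewer), for any gene at or above 0, and for Mki67 and Top2a. Of each other mitosis list the 2 genes with the smallest p are named. Further genes with values in every sample were chosen after these were seen. Alternatives were the normexp correction, quantile normalization, the authors' values, filters on dim probes, the mean over a gene's probes, blocks for slide and sample number, all arrays as separate samples, a random block for sample, each slide alone, the array with the conflicting genotype field left out, and each sample left out. Promoters came from RefSeq (GRCm38.p6), for names and sequence only.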

Additional observations from a re-analysis of the deposited data

How the results depend on the processing

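The 48 genes had a median difference between -1.11 and -0.54 under every alternative run, and 47 or 48 lay below WT, or all 46 kept when probes had to be above background on all arrays. Hmmr was the exception, at 0.025 after quantile normalization, 0.012 in the authors' deposited values, 0.063 within slide 2, and between -0.090 and 0.052 with samples left out. Calls moved more. The number of features called over all features by limma was 40, but 295 after normexp, 248 in the authors' values, 13 with no filter, 104 with probes above background on all arrays, 1199 with arrays as separate samples, 366 with the random block, 4 with slide as a block, 2 within slide 1, 36 without the array of KO replicate 1, and 0 to 9 with a sample left out. Of the 48 genes, 0 were called, but 1 after normexp, 1 in the authors' values, 1 with the random block (Ube2c each time) and 5 with arrays as separate samples (Ube2c, Mad2l1, Nuf2, Cdc20 and Cdca8). The 28 at an unadjusted p under 0.05 became 16 within slide 1 and 14 to 37 with a sample left out. Alternatives on fewer samples had fewer degrees of freedom; otherwise the cause was not tested. Sample numbers did not pair the groups (correlations of -0.04, 0.03 and 0.01), and with the sample number as a replicate block 0 features were called, against 24 of the 48 genes at an unadjusted p under 0.05. Dim signal over background limits Cdc25c, Ncapg and Cenpf.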
